A study of Mus musculus with 17 samples.

Results

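Adgrb2 and 7 other adhesion G protein-coupled receptor (GPCR) genes of the brain were followed across 17 libraries of mouse tissue labelled locus coeruleus. The members were taken by symbol: Adgrb1, Adgrb2, Adgrb3, Adgrl1, Adgrl2, Adgrl3, Adgrg1 and Adgra1, 8 of the 78298 genes listed for each library. Adgrb2 was selected on its TPM difference between compound and control libraries, and the others were chosen by name as its relatives in the brain with those results known. All 8 passed the filter on low values, as did 16153 genes in all. Male C57BL/6 mice were given vindeburnol (n = 5) or VB-127 (n = 6) at 20 mg/kg in water by oral gavage once daily for 5 days, or were left untreated (n = 6). Tissue was taken 24 h after treatment. Vindeburnol is a synthetic compound related to vinca alkaloids such as vincamine, and VB-127 is given in the labels as a derivative of it. No group received gavage without a compound, so the compound and the gavage cannot be told apart in any comparison with controls. Nothing in the labels ties the libraries to separate animals, and p-values here reflect only how these libraries vary, which may be technical.

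Adhesion GPCRs typically, though not in every case, join a long extracellular part, built of adhesion domains, to a membrane-spanning receptor part. Most can cut themselves at a site next to the membrane, and the exposed stub can then act as a tethered ligand for the receptor. The Adgrb genes encode the brain angiogenesis inhibitors, the Adgrl genes encode the latrophilins, and both groups are known from synapses. Adgrg1 encodes GPR56, known from cortical development and from glia, and Adgra1 encodes an orphan receptor of the brain.

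RefSeq windows of the GRCm38.p6 build, the 250 bases before a listed start, were found for 7 of the 8 members. The files use another build, GRCm39, so these positions are those of the RefSeq table alone. The windows of Adgrb2, of its relative Adgrb3 and of Adgrl2 are printed 5′ to 3′, because these are the member whose compound libraries all lay above the controls, a close relative whose groups overlapped, and the member with the largest fitted difference. Capitals mark GGGCGG, the GC box, on either strand in the Adgrb windows and TATAAA on either strand in the Adgrl2 window.
Adgrb2, chr4:129984620-129984869, plus strand: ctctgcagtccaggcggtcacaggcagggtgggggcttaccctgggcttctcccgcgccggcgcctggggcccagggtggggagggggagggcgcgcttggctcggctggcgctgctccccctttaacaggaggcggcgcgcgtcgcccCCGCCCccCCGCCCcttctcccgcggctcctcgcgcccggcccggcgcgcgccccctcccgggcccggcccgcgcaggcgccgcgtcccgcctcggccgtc
Adgrb3, chr1:25829708-25829957, minus strand: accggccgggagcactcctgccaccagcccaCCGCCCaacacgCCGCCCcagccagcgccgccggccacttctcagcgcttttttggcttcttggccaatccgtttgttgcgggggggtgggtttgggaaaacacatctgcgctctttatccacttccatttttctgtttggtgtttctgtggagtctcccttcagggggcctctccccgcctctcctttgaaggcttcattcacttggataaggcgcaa
Adgrl2, chr3:148954636-148954885, minus strand: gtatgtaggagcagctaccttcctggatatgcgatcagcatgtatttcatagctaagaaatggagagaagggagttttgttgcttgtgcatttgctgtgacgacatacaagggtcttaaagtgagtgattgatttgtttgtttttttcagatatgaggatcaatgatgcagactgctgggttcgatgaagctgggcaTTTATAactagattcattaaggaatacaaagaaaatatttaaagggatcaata
The Adgrb2 window held 35 CpG dinucleotides and was 81.6% G or C, and 3.00% of 32536 such windows held as many CpG. The Adgrb3 window held 14 CpG at 59.2% G or C, and the Adgrl2 window held 3 at 37.6%, against medians of 6 CpG and 52.4% over all windows. GGGCGG occurred 2 times in the Adgrb2 window, 2 times in the Adgrb3 window and not in the Adgrl2 window, and 33.0% of all windows held it. TATAAA occurred 1 time in the Adgrl2 window and not in the Adgrb2 or Adgrb3 window, with 12.3% of all windows holding it. Among the windows not printed, GGGCGG was in that of Adgrl1 and in each of those of Adgrl3, and TATAAA was in an Adgrl3 window. Those of Adgrg1 and Adgra1 held neither. CACGTG, the E-box that clock factors bind, was not in any of the 10 windows of the members, and 6.04% of all windows held it. These matches describe letters in the windows and are not evidence of a bound site.

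The deposited unit is TPM, a transcript level scaled by length and to the same total in every library, so read depth is unknown. Between libraries, 16.1% to 35.3% of the TPM total belonged to Bc1, a short neuronal non-coding RNA, so the level of every other gene also depends on the Bc1 share. The tissue label was checked against genes of noradrenergic neurons, the defining cells of the locus coeruleus. Dbh, which makes noradrenaline, had medians of 1.90 TPM in controls, 0.0631 TPM after vindeburnol and 0.868 TPM after VB-127, with a highest value of 18.9 TPM in control replicate 1. Slc6a2, the noradrenaline transporter gene, reached 8.94 TPM in that library, 0.350 TPM after vindeburnol and 0.929 TPM after VB-127, and the noradrenergic factor gene Hand2 was listed at 0 in all 17 libraries. Tph2 of serotonergic neurons and Slc6a3 of dopaminergic neurons had control medians of 84.4 and 40.6 TPM. Noradrenergic markers were thus low for the labelled region in nearly all libraries. Dbh, the only noradrenergic marker past the filter, was lower than in controls with both compounds at an unadjusted p under 0.05 in limma. Its log2 differences were -1.71 for vindeburnol (adjusted p 0.516) and -1.28 for VB-127 (adjusted p 0.483), and the groups overlapped. Of all genes, 1.22% and 0.532% were lower on that measure. Tissue content and compound cannot be told apart in comparisons with controls. Fewer cells of a type and less RNA per cell cannot be told apart in such bulk tissue.

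Over the 17 libraries Adgrb1, whose product binds phosphatidylserine on dying cells and takes part in synapse formation, had the highest level of the members at 124 ± 18.3 TPM (SD, n = 17). Adgrg1 followed at 77.7 ± 13.7 TPM, then Adgrb2 at 66.7 ± 10.3 TPM and the latrophilin-1 gene Adgrl1 at 55.2 ± 10.4 TPM (each SD, n = 17). Adgrl2, Adgrl3, Adgrb3 and Adgra1 lay between 17.7 and 26.3 TPM. Adgrb1 was higher than 94.2% of the tested genes and Adgra1 higher than 62.5%, so the members spanned the upper part of the expressed range. The top of this order was firm, with Adgrb1 above Adgrg1 in 17 of 17 libraries, at a median ratio of 1.70. Adgrl1 was above Adgrl2 in 17 of 17 libraries at a median ratio of 2.10. Neighbours in the order that did not separate were Adgrg1 and Adgrb2 (13 of 17 libraries), Adgrb2 and Adgrl1 (15 of 17), Adgrl2 and Adgrl3 (10 of 17), and Adgrb3 and Adgra1 (13 of 17). Adgrl3 was above Adgrb3 in 17 of 17 libraries, although by as little as 1.00-fold in 1 of them.

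**Figure D1:**
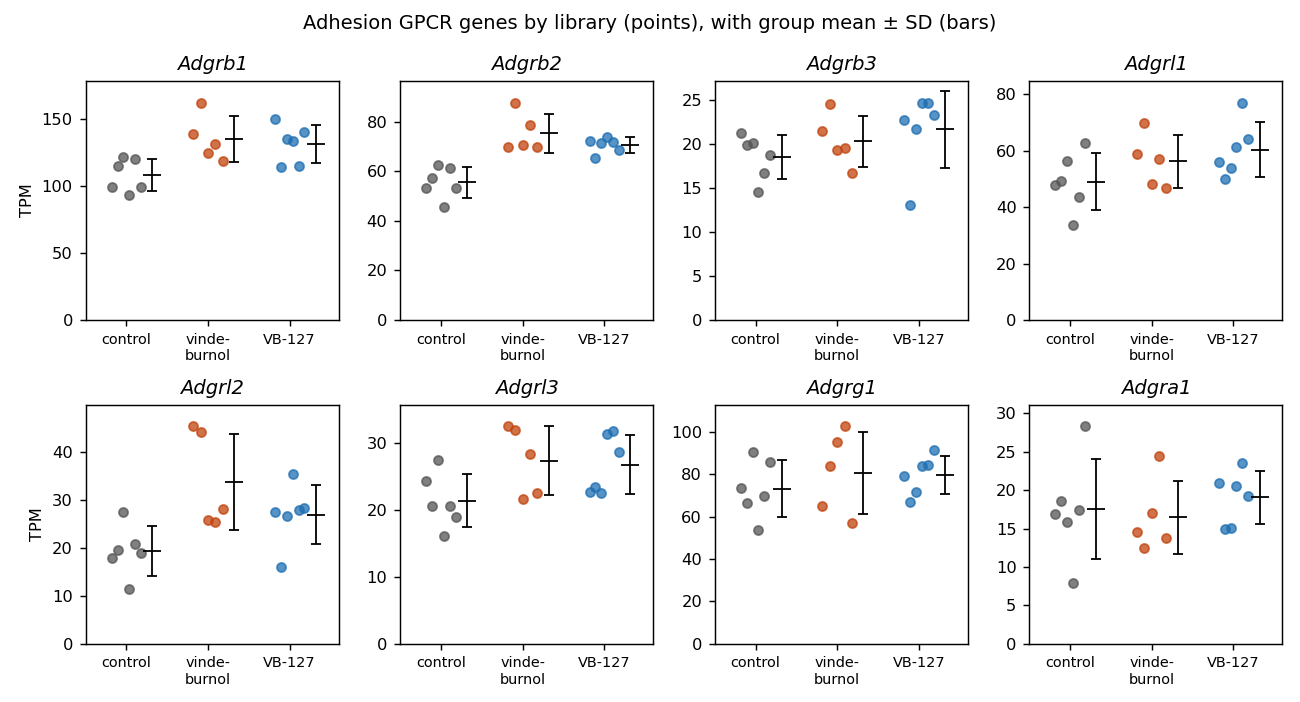
TPM of the 8 genes (vertical axes, from 0) in each library (points) of the control, vindeburnol and VB-127 groups, with bars for the group mean ± SD (n = 6, 5 and 6). Adgrb2 is the gene in which both compound groups lie wholly above the controls, whose highest value is 62.6 TPM, and Adgrb3 has 1 VB-127 library at 13.1 TPM below all others.

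Adgrb2 was singled out for its difference between compound and control libraries in earlier results of these data, so its differences from controls are a description and carry no test. Its product, BAI2, is a neuronal receptor whose ligands are less well known than those of its relatives. In controls Adgrb2 had a lowest value of 45.4 TPM, a median of 55.3 TPM and a highest value of 62.6 TPM. After vindeburnol it stood at 69.7, 87.6, 70.5, 78.6 and 69.8 TPM in replicates 1 to 5. After VB-127 it went from 65.3 TPM through a median of 71.7 TPM to 73.7 TPM. Every library of either compound group was thus above every control library, and the VB-127 libraries lay closest together, with a coefficient of variation of 4.34% against 10.5% after vindeburnol and 11.4% in controls. The group means were 75.3 ± 7.87 TPM for vindeburnol, 70.6 ± 3.06 TPM for VB-127 and 55.5 ± 6.31 TPM for controls (SD, n = 5, 6 and 6). On the log2(TPM + 1) scale Adgrb2 differed from controls by 0.43 (SE 0.087) with vindeburnol. With VB-127 the difference was 0.35 (SE 0.083). The medians of all tested genes were 0.08 and 0.11 in these comparisons, which share their controls. Groups that did not overlap, with the compound higher, were found for 0.458% of genes with vindeburnol and 0.656% with VB-127, and with the compound lower for 0.0619% and 0.0124%. Adgrb1 with vindeburnol had 4 of 5 libraries above the highest control. Adgrb3 with VB-127 had 5 of 6 above it, but its remaining library, at 13.1 TPM, lay below every control. With VB-127, Adgrb1 and Adgrl2 had 4 of 6 libraries above the highest control. Such partial separation was not counted over all genes, so these values only describe the members.

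The Adgrb2 levels were then set beside the Bc1 share, because Bc1 takes up to 35.3% of the total. With TPM rescaled to the total without Bc1, Adgrb2 lay at 64.7 to 80.8 TPM for controls, 85.7 to 105 TPM for vindeburnol and 83.9 to 92.9 TPM for VB-127. The compound and control groups did not overlap on that scale either, but the share of all genes with such groups was not counted there. Adgrb2 was selected on this difference in the same libraries, so its rescaled values are a description and no test. The log2 differences of Adgrb2 became 0.38 for vindeburnol and 0.28 for VB-127, and 0.35 and 0.23 with median-ratio scaling, which brought the medians of all genes to 0.0028 and 0.0089. Control replicate 4 had the largest Bc1 share, 35.3%, and the lowest deposited level among controls of 8 of the 8 members. Its summed member level as deposited was 276 TPM against 355 to 422 TPM in the other controls. Rescaled without Bc1, this library was still the lowest control for Adgrl1, Adgrl2, Adgrg1 and Adgra1, but not for Adgrb1, Adgrb2, Adgrb3 and Adgrl3. Without that library the Adgrb2 differences were 0.38 for vindeburnol and 0.29 for VB-127.

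**Figure D2:**
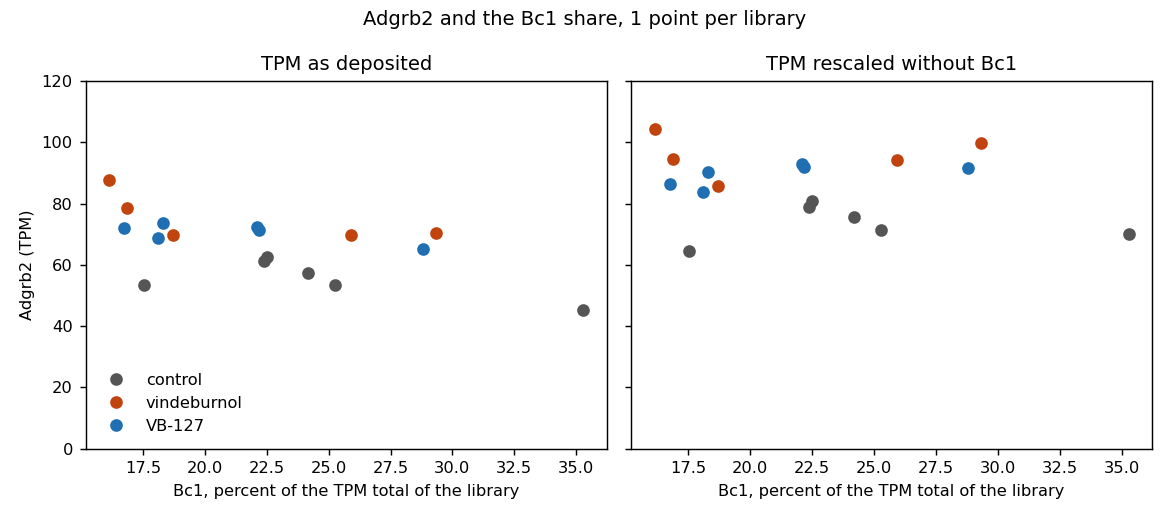
Adgrb2 (vertical axis, TPM) against the percent of the TPM total taken by Bc1 (horizontal axis), 1 point per library, with TPM as deposited on the left and rescaled without Bc1 on the right. The control with a Bc1 share of 35.3% has the lowest deposited Adgrb2 value, 45.4 TPM, and the compound libraries lie above all controls in both panels.

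Among the relatives of Adgrb2, Adgrb1 was at 139, 162, 124, 131 and 118 TPM in vindeburnol replicates 1 to 5. Controls had a lowest value of 93.5, a median of 107 and a highest value of 122 TPM for Adgrb1, and VB-127 libraries 114, 134 and 150 TPM in the same order. The groups overlapped, yet every vindeburnol and every VB-127 library exceeded the control mean of 108 TPM. That held for 4 members with either compound, Adgrb1, Adgrb2 and Adgrl3 with both, Adgrl2 with vindeburnol and Adgrl1 with VB-127, and for 9.78% of all genes with vindeburnol and 15.4% with VB-127. The log2 difference of Adgrb1 was 0.32 for vindeburnol (SE 0.097, 95% interval 0.12 to 0.52, adjusted p 0.471) and 0.28 for VB-127 (SE 0.092, 95% interval 0.086 to 0.47, adjusted p 0.461). Neither passed the test. Adgrb3, whose product binds C1q-like proteins and acts at climbing fibre synapses on Purkinje cells, was at 21.5, 24.5, 19.3, 19.6 and 16.7 TPM after vindeburnol. Its controls ran from 14.5 TPM through a median of 19.3 TPM to 21.2 TPM, and VB-127 libraries from 13.1 through 23.0 to 24.7 TPM. The Adgrb3 groups overlapped, with log2 differences of 0.13 for vindeburnol (95% interval -0.18 to 0.43, adjusted p 0.849) and 0.20 for VB-127 (95% interval -0.095 to 0.49, adjusted p 0.603). Leaving out control replicate 4 took the vindeburnol value of Adgrb3 to 0.062, leaving out vindeburnol replicate 2 took it to 0.059 and leaving out replicate 5 of that group took it to 0.19, and the VB-127 value was 0.33 without VB-127 replicate 2.

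Shares within a library do not depend on how the library was scaled. Adgrb2 made up 30.5% ± 0.629 of the summed TPM of the Adgrb genes for controls, 32.7% ± 1.62 for vindeburnol and 31.7% ± 2.00 for VB-127 (SD, n = 6, 5 and 6). The ranges were 29.6% to 31.2%, 30.3% to 34.3% and 29.5% to 34.0%, so the groups overlapped on this measure. Adgrb1 made up 59.3%, 58.5% and 58.6% of the sum and Adgrb3 10.2%, 8.79% and 9.65%, in the same order of groups. No test was run on these shares.

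Latrophilins bind teneurins and FLRT proteins across synapses, and latrophilin-1 is the receptor for a black widow spider toxin. Adgrl2, which encodes latrophilin-2, had the largest fitted difference of the members and was not past the threshold. It stood at 45.4, 44.2, 25.8, 25.5 and 28.1 TPM in vindeburnol replicates 1 to 5. Controls ran from 11.4 TPM through a median of 19.3 TPM to 27.5 TPM, and VB-127 libraries from 16.0 through 27.8 to 35.5 TPM. Replicates 1 and 2 of vindeburnol stood highest of all 17 libraries for Adgrl2, and vindeburnol replicates 3 and 4 lay below the highest control. The log2 difference of Adgrl2 was 0.77 for vindeburnol (SE 0.21, 95% interval 0.33 to 1.20, adjusted p 0.437) and 0.47 for VB-127 (SE 0.20, 95% interval 0.050 to 0.88, adjusted p 0.470).

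Adgrl3, which encodes latrophilin-3, was at 32.4, 31.9, 21.6, 28.3 and 22.4 TPM after vindeburnol. Controls had a lowest value of 16.1, a median of 20.6 and a highest value of 27.4 TPM for Adgrl3, and VB-127 libraries 22.5, 26.03 and 31.8 TPM. The groups overlapped, with log2 differences of 0.34 (95% interval 0.041 to 0.64, adjusted p 0.555) and 0.31 (95% interval 0.027 to 0.60, adjusted p 0.472). Adgrl1 was at 58.9, 70.0, 48.2, 57.2 and 46.8 TPM after vindeburnol, against 33.8, 48.6 and 62.9 TPM for the lowest, median and highest control and 49.9, 58.7 and 77.0 TPM for VB-127. These groups overlapped as well, with log2 differences of 0.20 for vindeburnol (95% interval -0.091 to 0.50, adjusted p 0.709) and 0.31 for VB-127 (95% interval 0.025 to 0.59, adjusted p 0.473). Leaving out control replicate 4 took the vindeburnol value of Adgrl1 to 0.10, and leaving out vindeburnol replicate 2 took it to 0.12. Of the summed TPM of Adgrl1, Adgrl2 and Adgrl3, Adgrl2 made up 21.4% ± 2.70 for controls, 28.4% ± 3.82 for vindeburnol and 23.5% ± 3.73 for VB-127 (SD, n = 6, 5 and 6). The Adgrl2 share ran from 18.6% to 24.7% in controls and from 23.0% to 33.2% after vindeburnol, so the groups overlapped.

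**Figure D3:**
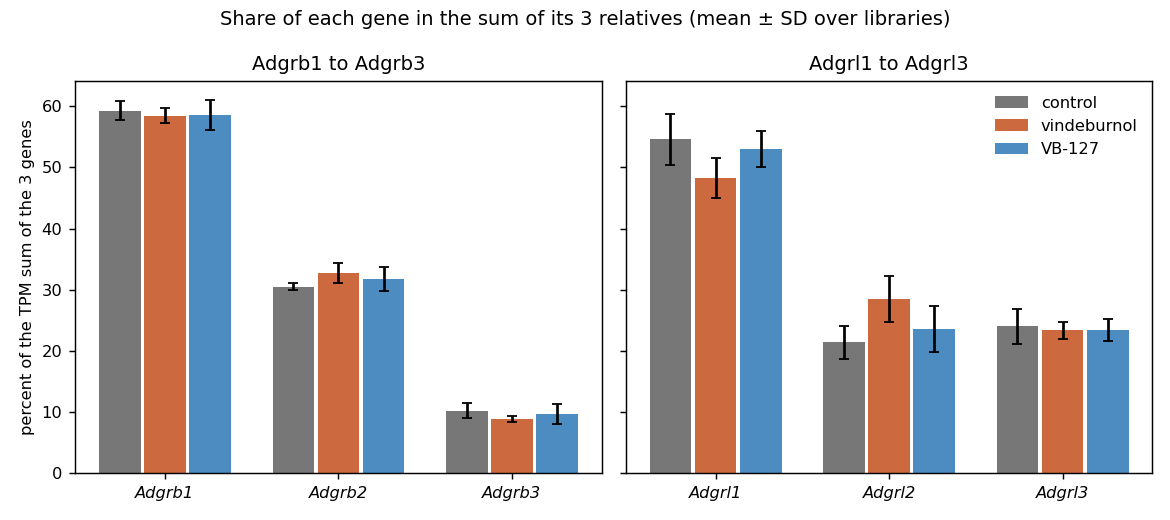
Percent of the summed TPM of Adgrb1 to Adgrb3 (left) and Adgrl1 to Adgrl3 (right) made up by each gene, as bars from 0 for the mean and error bars for the SD over libraries (n = 6 controls, 5 vindeburnol, 6 VB-127). The mean Adgrb2 share is 30.5%, 32.7% and 31.7% in the 3 groups, and the Adgrl2 share is 21.4% in controls and 28.4% after vindeburnol.

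For Adgrg1 and Adgra1 the intervals of both differences from controls included 0. Adgrg1 was at 64.8, 83.7, 95.03, 103 and 57.1 TPM after vindeburnol, a range that held every other library but control replicate 4. Controls had a lowest value of 53.7, a median of 71.6 and a highest value of 90.6 TPM, and VB-127 libraries 67.0, 81.6 and 91.4 TPM. The log2 difference of Adgrg1 was 0.12 for vindeburnol (95% interval -0.18 to 0.43, adjusted p 0.853) and 0.13 for VB-127 (95% interval -0.16 to 0.42, adjusted p 0.727). With 1 library left out, the vindeburnol value of Adgrg1 ran from 0.028 without vindeburnol replicate 4 to 0.24 without vindeburnol replicate 5, and the VB-127 value was 0.046 without control replicate 4. Adgra1 was at 14.5, 12.4, 17.05, 24.5 and 13.7 TPM after vindeburnol, while controls ran from 7.94 TPM through 17.2 TPM to 28.3 TPM and VB-127 libraries from 14.9 through 19.9 to 23.5 TPM. Both the lowest and the highest Adgra1 value of the 17 libraries belonged to controls, replicates 4 and 6. The log2 difference of Adgra1 was -0.04 for vindeburnol (95% interval -0.51 to 0.42, adjusted p 0.974), the only member with a negative value, but it was 0.11 without control replicate 6, 0.04 without vindeburnol replicate 2, 0.0094 without vindeburnol replicate 5 and 0.34 with monoamine marker covariates. For VB-127 it was 0.18 (95% interval -0.26 to 0.62, adjusted p 0.755), and without control replicate 4 it was -0.014.

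**Figure D4:**
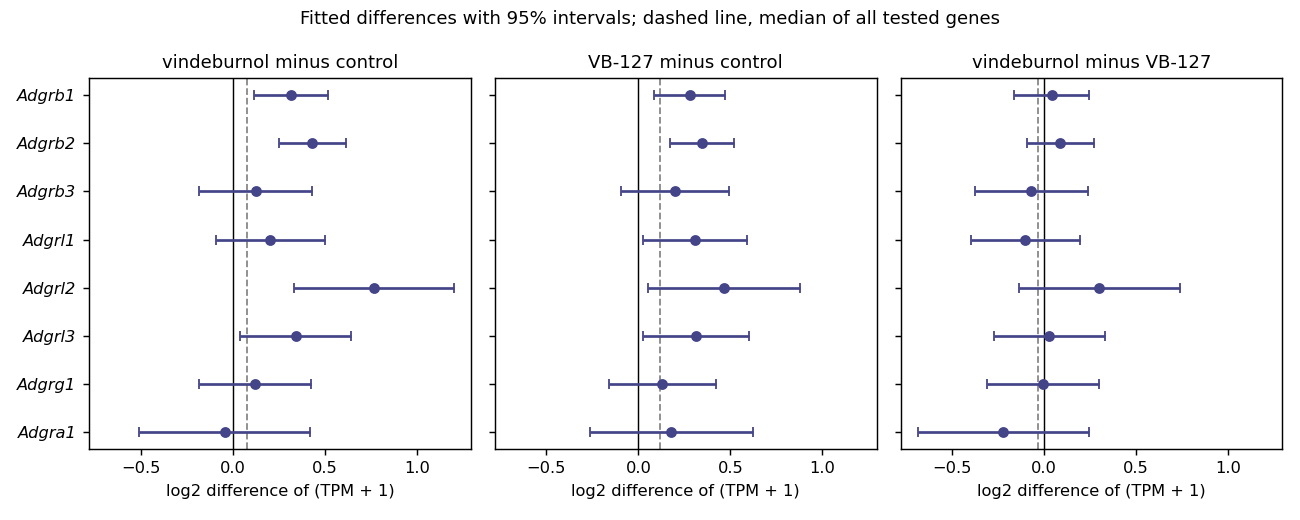
Fitted difference of each gene on the log2(TPM + 1) scale (points) with its 95% interval (lines), for vindeburnol minus control, VB-127 minus control and vindeburnol minus VB-127. The dashed lines are the medians of all tested genes, 0.08, 0.11 and -0.03. Adgrl2 has the largest fitted difference in both comparisons with controls, 0.77 and 0.47, and these comparisons share their control libraries. The lines of Adgrb2 in these comparisons show its spread and are no test, since it was selected on that difference.

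Across all genes, limma called 0% of genes for vindeburnol against controls and 0.00619% for VB-127 against controls, which is 1 gene and not a member, with 1319 and 1648 genes at an unadjusted p under 0.05. Setting Adgrb2 aside, 3 members were higher at an unadjusted p under 0.05 with vindeburnol (Adgrb1, Adgrl2 and Adgrl3), where 6.95% of all genes were. With VB-127 these were 4 members, the same 3 and Adgrl1, where 9.67% of all genes were. No member was lower on that measure, against 1.22% and 0.532% of genes. A difference above 0 was the rule among all genes, at 69.7% with vindeburnol and 79.4% with VB-127. The members were named with earlier results of these data known, so these counts describe them and support nothing further. The summed level of the 8 members was 363 ± 48.3 TPM for controls, 445 ± 53.1 TPM for vindeburnol and 436 ± 39.7 TPM for VB-127 (SD, n = 6, 5 and 6).

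Vindeburnol and VB-127, the 1 pair of related compounds, were compared at the same dose and duration for each member. No difference passed the test, with adjusted p values of 1.00 for all 8 members, and limma called 0% of all genes, with 546 at an unadjusted p under 0.05 (0.891% higher and 2.49% lower with vindeburnol, 0 members in either direction). The fitted log2 difference was above 0 for 4 of 8 members, against 38.9% of genes. No member had groups that did not overlap, against 0.105% of genes higher and 0.285% lower with vindeburnol, and none had every vindeburnol library above the VB-127 mean, against 1.81%. Adgrb2 was at 75.3 TPM after vindeburnol and 70.6 TPM after VB-127, a log2 difference of 0.09 with a 95% interval of -0.095 to 0.27. That interval leaves room for a vindeburnol level from 0.936 to 1.20 times that of VB-127. Adgrl2 had the widest gap between the compounds, 33.8 against 27.0 TPM, with a log2 difference of 0.30 and a 95% interval of -0.13 to 0.74. It was 0.18 without vindeburnol replicate 1, 0.19 without vindeburnol replicate 2 and 0.16 without VB-127 replicate 2. Adgra1 lay the other way, at 16.4 against 19.1 TPM, with a difference of -0.22 (95% interval -0.69 to 0.24). Adgrb1, Adgrb3, Adgrl1, Adgrl3 and Adgrg1 had differences from -0.10 to 0.04, and their intervals lay between -0.40 and 0.33. These intervals do not show that the compounds act alike.

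Of 22 other adhesion GPCR genes looked up, 10 passed the filter. Celsr2, a cadherin-type receptor gene of planar cell polarity, was the highest at 22.9 ± 4.92 TPM for controls, 29.8 ± 7.03 TPM for vindeburnol and 28.1 ± 4.68 TPM for VB-127 (SD, n = 6, 5 and 6). The endothelial genes Adgrf5 and Adgrl4 had control means of 12.7 ± 3.26 and 14.0 ± 5.25 TPM (SD, n = 6). None of the 10 passed limma's test in either comparison with controls (2 with vindeburnol and 1 with VB-127 were higher at an unadjusted p under 0.05, where 6.95% and 9.67% of all genes were). Their fitted differences were above 0 for 8 with vindeburnol and 6 with VB-127, against 69.7% and 79.4% of all genes, and the medians were 0.17 and 0.19, against 0.08 and 0.11. Celsr3, another cadherin-type receptor gene that guides axons, had the smallest p of the list in both comparisons. It was at 7.00 ± 2.31 TPM for controls, 10.6 ± 4.34 TPM for vindeburnol and 10.2 ± 1.64 TPM for VB-127 (SD, n = 6, 5 and 6), with log2 differences of 0.51 (adjusted p 0.555) and 0.51 (adjusted p 0.470). Adgrg4 and Adgrg7 were listed at 0 in all 17 libraries. Adgra2, which supports Wnt signalling in brain vessels, was at 3.68 TPM in controls, 4.41 TPM after vindeburnol and 4.86 TPM after VB-127, with adjusted p values of 0.730 and 0.494.

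Of 23 ligands and surface partners, all passed the filter and none passed limma's test, with differences above 0 for 15 with vindeburnol and 21 with VB-127, against 69.7% and 79.4% of all genes. At an unadjusted p under 0.05, 1 and 5 of them were higher, against 6.95% and 9.67% of all genes. Their median log2 differences were 0.10 and 0.21, against 0.08 and 0.11. The neurexin gene Nrxn2 was the most abundant, at 125 ± 13.2 TPM for controls, 134 ± 17.3 TPM for vindeburnol and 138 ± 12.3 TPM for VB-127 (SD, n = 6, 5 and 6), and its relative Nrxn3 had a control mean of 38.0 TPM. The teneurin gene Tenm2, a latrophilin ligand, had log2 differences of 0.41 with vindeburnol (adjusted p 0.555) and 0.44 with VB-127 (adjusted p 0.470), from 11.6 TPM in controls to 15.7 and 16.1 TPM. The netrin receptor genes Unc5a and Unc5b were at 16.9 and 15.4 TPM in controls, 19.9 and 16.9 TPM after vindeburnol, and 20.01 and 19.4 TPM after VB-127, with adjusted p values from 0.461 to 0.770.

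Of 26 intracellular partners, all passed the filter and none passed limma's test, and 24 had differences above 0 with each compound, against 69.7% and 79.4% of all genes. At an unadjusted p under 0.05, 3 and 3 of them were higher, against 6.95% and 9.67% of all genes. Their median log2 differences were 0.15 and 0.13, against 0.08 and 0.11. The G protein genes Gnas and Gnao1 and the small GTPase gene Rac1, which acts downstream of Adgrb1 in engulfment, had control means of 1784, 231 and 238 TPM, and their log2 differences from controls ran from 0.0090 to 0.19. Dlg4, which encodes the postsynaptic scaffold PSD-95, was at 146 ± 17.9 TPM for controls, 181 ± 24.2 TPM for vindeburnol and 179 ± 23.2 TPM for VB-127 (SD, n = 6, 5 and 6). Its log2 differences were 0.31 (adjusted p 0.507) and 0.29 (adjusted p 0.461). Elmo2, of the engulfment module, was at 48.0 TPM in controls, 54.2 TPM after vindeburnol and 58.8 TPM after VB-127 (adjusted p 0.655 and 0.461). Arrb2, which encodes beta-arrestin-2, differed by 0.36 with vindeburnol (adjusted p 0.428) and 0.17 with VB-127 (adjusted p 0.528). Bcr, a regulator of Rac, differed by 0.29 (adjusted p 0.507) and 0.20 (adjusted p 0.494).

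Markers of the cell types in the tissue were read beside these values. The summed level of 8 neuron markers lay at 2127 to 3804 TPM for controls, 2792 to 3338 TPM for vindeburnol and 2687 to 3548 TPM for VB-127. That of 8 astrocyte markers lay at 1925 to 2465, 1840 to 2195 and 1973 to 2181 TPM, and that of 5 Purkinje markers at 259 to 338, 249 to 325 and 250 to 323 TPM. The ranges overlapped for oligodendrocyte precursors (88.4 to 152, 111 to 149 and 123 to 171 TPM), myelin (5986 to 9988, 6678 to 8055 and 7401 to 9686 TPM) and microglia (235 to 346, 238 to 301 and 246 to 307 TPM). They also overlapped for endothelium (155 to 273, 146 to 205 and 165 to 226 TPM). A sum is led by its most abundant gene, such as Mbp for myelin and Aldoc for astrocytes, and single markers did differ in value. At an unadjusted p under 0.05 in limma, 3 of 6 myelin markers were higher with VB-127. So were 1 neuron, 1 oligodendrocyte precursor and 1 Purkinje marker, while 1 astrocyte marker was lower. With vindeburnol, 1 of 8 astrocyte markers and 1 neuron marker were higher, and 2 astrocyte, 1 microglia and 1 endothelial marker were lower. Of all genes, 9.67% were higher and 0.532% lower with VB-127, and 6.95% and 1.22% with vindeburnol. None of these markers passed the adjusted threshold. The astrocyte genes Gfap and Aldh1l1, named after their values were seen, had means of 144 and 44.9 TPM in controls and 95.5 and 58.6 TPM with vindeburnol. The part of these markers in the members' differences was not tested beyond the covariate fits given here. The sum of the serotonergic markers was lower on average in both compound groups. It lay at 75.5 to 222 TPM for controls, 26.6 to 167 TPM for vindeburnol and 18.3 to 182 TPM for VB-127, and the ranges overlapped. Of these 5 markers, 4 were lower in value with each compound. Gata3 was higher, at 11.1 TPM in controls, 12.7 TPM with vindeburnol and 13.7 TPM with VB-127. Dopaminergic markers summed to 39.3 to 224, 71.2 to 178 and 77.0 to 313 TPM, and noradrenergic markers to 0.380 to 29.7, 0.114 to 2.33 and 0 to 3.69 TPM. With the mean log2 levels of these 3 monoamine lists as covariates, the Adgrb2 differences were 0.38 and 0.31, those of Adgrb1 0.20 and 0.18, and those of Adgrl2 0.57 and 0.33. With neuron and myelin markers as covariates, Adgrb2 was at 0.42 and 0.32. In vindeburnol replicate 3 the Purkinje gene Pcp2 was at 20.3 TPM, the highest of all libraries, and without this library the Adgrb2 difference for vindeburnol was 0.46.

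The genes whose pattern was most like that of Adgrb2 were ranked among 10405 genes by Pearson's r on log2(TPM + 1) over the 17 libraries. They were the lipocalin receptor gene Slc22a17 (r = 0.94, rho = 0.86), the kinase gene Lmtk3 (r = 0.93, rho = 0.88), Btbd2 (r = 0.93, rho = 0.94), the synaptic adhesion gene Lrrc4b (r = 0.92, rho = 0.94) and the kainate receptor subunit gene Grik5 (r = 0.92, rho = 0.90). They were picked for a high r, so no p is given, and all genes of a library share its scaling and Bc1 share. Without the 2 libraries farthest from the Adgrb2 median, r was 0.85 to 0.89 for these 5 genes. Around the group means, r was 0.80 to 0.85. Those deviations are part of the values on which the genes were picked, so this r is no separate support. The nearest gene was Slc6a7, a proline transporter gene, for Adgrb1 (r = 0.94), Pcdhga11 for Adgrb3 (r = 0.94), Glg1 for Adgrl1 (r = 0.97) and the brain cholesterol hydroxylase gene Cyp46a1 for Adgrl2 (r = 0.95). It was the neuroligin gene Nlgn3 for Adgrl3 (r = 0.92), Astn2 for Adgrg1 (r = 0.91) and the amino acid transporter gene Slc7a1 for Adgra1 (r = 0.91).

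Overlapping genes bear on how far each value is the member's own. In GENCODE M21, an annotation on an earlier build that was used for names and neighbours only, Adgrb2, Adgrg1 and Adgra1 overlap no other gene. Within Adgrb3 on the same strand lies 2900022M07Rik, at 6.05 TPM on average and up to 11.9 TPM, whose reads cannot be told apart from those of Adgrb3 pre-mRNA. Antisense to Adgrl2 lies Gm43573, at 0.909 TPM on average, and opposite Adgrl1 lies Gm10644, at 0.807 TPM on average. The library kit keeps strand, but the sources used here do not say whether the counting did, so antisense reads cannot be told apart from those of Adgrl1 and Adgrl2.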

How the data were processed

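RNA-seq was measured in 17 libraries of poly(A) RNA. Values are TPM as deposited, made by the authors with STAR, Salmon and GRCm39 named in the submitters' processing notes; versions, roles and annotation release are not given in the sources used here. TPM keeps no read depth, so precision rests on the spread between libraries. Groups came from the labels, and no 2 libraries held identical values.

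Values were analysed as log2(TPM + 1). Genes with at least 1 TPM in at least 5 libraries were tested (16153). With limma 3.58.1 in R 4.3.3, a model holding only the group was fitted over the 17 libraries, and eBayes was run with its trend and robust options. Two-sided p-values were adjusted over all tested genes by the Benjamini-Hochberg method, with 0.05 as the threshold. The fit was tested on simulated data.

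The members and lists were chosen with earlier results of these data known. Named genes were the members, up to 3 genes of highest mean and up to 2 of smallest p per comparison with controls from each of 3 pathway lists, and the genes most correlated with Adgrb2 (5) and each other member (1), taken from genes averaging 5 TPM or more and carrying no predicted name. A gene that this rule names is not reported here. Leaving out control replicates 1 and 6, or these and vindeburnol replicate 3, was added after seeing the data. The remaining alternatives changed the pseudocount, the low-value filter or the scaling, used library weights or plain eBayes, added marker covariates or a replicate block, or left out 1 group or 1 library. A table of the whole series was not used here.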

Additional observations from a re-analysis of the deposited data

Results flagged for a closer look

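Of 24 member and group combinations examined, 1 held a library far from the others of its group. Adgrb3 in VB-127 replicate 2 was at 13.1 TPM against 21.7 to 24.7 TPM in the other 5 VB-127 libraries, a gap of 0.740 of the group's range. Chance flags about 1 in 20 groups. That library also had the largest Bc1 share of its group, 28.8%. With TPM rescaled to the total without Bc1, its Adgrb3 value was 18.4 TPM, against 27.8 to 30.1 TPM in the other 5. The lowest control was at 21.5 TPM on that scale. The cause of the low Adgrb3 value was not tested. Without VB-127 replicate 2, Adgrb3 differed from controls by 0.33 for VB-127.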

How the results depend on the processing

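The 24 member differences were recomputed under 26 or 27 alternatives each. Of 632 values, 0 passed the threshold in limma, 602 kept their direction, and 17 of the 24 differences kept it under every alternative. These counts include the differences of Adgrb2 from controls, on which it was selected. For Adgrb2 they are a description and no test. Adgrb2 ran from 0.34 to 0.47 for vindeburnol and from 0.23 to 0.38 for VB-127, and Adgrl2 from 0.56 to 0.87 and from 0.33 to 0.60. Against controls, Adgrg1 turned to -0.015 for vindeburnol with library weights. Adgra1 turned to 0.34 for vindeburnol with monoamine covariates, 0.15 without control replicates 1 and 6, 0.13 without these and vindeburnol replicate 3 (0.37 for VB-127 there, from 0.18), and -0.0071 for VB-127 with neuron and myelin covariates. With 1 library left out, Adgra1 ran from -0.24 to 0.11 for vindeburnol and from -0.014 to 0.33 for VB-127. Between the compounds, library weights turned Adgrb1 to -0.038 and Adgrl3 to -0.072, and neuron and myelin covariates turned Adgrl3 to -0.032. Monoamine covariates turned Adgrl3 to -0.013, Adgrg1 to 0.060 and Adgra1 to 0.057, and Adgrg1 was 0.029 with median-ratio scaling and 0.00072 without Bc1. With 1 library left out, Adgrb1 ran from -0.028 to 0.084, Adgrl3 from -0.037 to 0.10 and Adgrg1 from -0.10 to 0.11. Without changing sign, Adgrb2 ran from 0.031 (without vindeburnol replicate 2) to 0.11, Adgrb3 from -0.20 to -0.0066, Adgrl1 from -0.18 to -0.031 and Adgra1 from -0.37 to -0.14. The cause was not tested.

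The count of called genes for vindeburnol was 0 and became 1 without Bc1, with library weights or with plain eBayes, and 2 with neuron and myelin covariates. For VB-127 it was 1. It became 0 with a pseudocount of 0.1, no filter, a 5 TPM filter, either covariate set, the replicate block, or without control replicates 1 and 6 and vindeburnol replicate 3, 3 with library weights, and 2 with only the groups compared or without control replicates 1 and 6. It ran from 0 to 1 with 1 library left out, at 0 without control replicate 4 or 5 or VB-127 replicate 4, 5 or 6. Between the compounds it was 0 and became 1 with neuron and myelin covariates.

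The labels give no meaning to the replicate numbers. Same-numbered libraries of different groups had correlations of their deviations from -0.20 to 0.11 over 16 pairs, and 1 of 17 libraries correlated best with its own number. No pairing was visible on this measure, which cannot show that there was none. The main fit treated the libraries as unpaired. The replicate block left Adgrb2 at 0.42 and 0.35, turned Adgra1 to 0.036 for vindeburnol against controls and Adgrg1 to 0.038 between the compounds, and called 0 genes in all 3 comparisons. Read depth is unknown and no statement here rests on it.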
